A study of Mus musculus with 2 samples.

Results

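The cathepsin genes Ctsb, Ctsc, Ctsd, Ctsh, Ctsl, Ctss, Ctsw and Ctsz were followed by name through the immune cells of the mouse liver. They were 8 of the 13528 genes in the filtered table of transcript counts, and all 8 were found in both genotypes. TG mice carry dnTGFβRII, a human receptor chain that binds TGF-β and blocks its signal. The Cd4 promoter drives this transgene, so T cells make the chain, and primary biliary cholangitis is the human disease that these mice model. WT mice were of the same C57BL/6 strain. The labels put the age at 10 weeks, while a younger age stands in the study's methods. CD45+ liver cells were captured in 2 libraries. One held dnTGFβRII mice pooled with IFN-γ ARE-Del-/- mice, the other wild type mice pooled with P40-/-IL-2Ra-/- mice. In the cell table only TG and WT cells are named, so each genotype was 1 library with no replicate, and a difference of genotype cannot be told apart from one of capture. No test was made. Every interval below is at 95% and covers counting error only.

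Cathepsins are proteases that work mostly in the acid interior of endosomes and lysosomes. Cathepsins B, C, H, L, S, W and Z are cysteine proteases of the papain family, and cathepsin D is an aspartic protease. Cathepsins S and L cut the invariant chain that fills the groove of MHC class II molecules, cathepsin C activates the granzymes of killer cells and the serine proteases of neutrophil granules, and cathepsin W is known from NK cells and cytotoxic T cells.

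In GRCm38 the genes lie on 7 chromosomes: Ctss at chr3:95526786-95556403 and Ctsb at chr14:63122462-63145923 on the plus strand, Ctsz at chr2:174427493-174439039, Ctsl at chr13:64359337-64370890 and Ctsw at chr19:5465043-5468507 on the minus strand, and Ctsh at chr9:90054152-90076089 on the plus strand. Ctsc at chr7:88278085-88310888 on the plus strand and Ctsd at chr7:142375911-142388038 on the minus strand share a chromosome. Ctsd overlaps the protein-coding gene Gm49369 over 6757 bases of the same strand. Also on the same strand are the pseudogenes Hmgb1-ps5, over 557 bases of Ctss, and Gm49230, over 395 bases of Ctsl. On the other strand Ctsc overlaps Gm26522 over 4743 bases, Ctsl overlaps Gm47123 over 1971 and Ctsb overlaps Fdft1 over 774. Ctsw and Ctsz overlap a gene of the other strand by 9 and 10 bases. How shared reads were counted, and whether by strand, is not given in the sources used here, so these values may hold reads of their neighbours. The counts are per gene, so reads could not be placed in an exon or UTR.

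The TG library held 4647 named cells with 18498477 transcript molecules (UMIs) and a median of 3298 per cell, and the WT library 7282 cells with 22216379 UMIs and a median of 2653.5. Cell barcodes shared by both libraries numbered 36 among the named cells. Levels are given as CPM, the usual scaling by depth, in which the summed UMIs of a gene are divided by all UMIs of the same cells. They are not scaled by length and set a gene against itself in other cells, not against another gene. The authors' cell type names were checked against marker genes. Plasmacytoid dendritic cells, with 46 TG and 219 WT cells, carried their markers, such as Siglech at 3028 CPM in TG against 4304 CPM in WT. Cells named Mono were cluster 5, whose leading genes were those of neutrophils, among them Il1b, Cxcl2, Csf3r and Cxcr2, and which held the neutrophil gene S100a8 at 21386 CPM in TG against 10788 CPM in WT but the monocyte gene Ccr2 at only 21.7 and 40.2 CPM. All 6 monocyte markers, Ccr2 among them, had UMIs in cluster 5 and summed to 3171 CPM in TG against 2465 CPM in WT. The 6 neutrophil markers there summed to 64247 CPM in TG against 44402 CPM in WT. The cells named Mono are called cluster 5 below. Antibody counts for Ly-6G, a neutrophil protein, were 2 or fewer in every cluster looked at. Cells named Macro were 3 clusters of different make. Cluster 15 was led by Ifitm3, Ms4a6c and Csf1r. Cluster 22 was led by Cst3, Naaa and Xcr1, with Clec9a among its leading genes, which are known from conventional dendritic cells. Cluster 27 was led by Saa3, with C1qb and C1qc among its leading genes, and had 23 WT cells and 0 TG cells. The macrophage gene Clec4f was not among the genes of the filtered table. Clusters were built from these same transcripts, so the level of a cathepsin in 1 cluster against the others is a description.

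Plasmacytoid dendritic cells held the highest levels of Ctsb, Ctsl, Ctsh and Ctsz in both genotypes. Of all genes with at least 100 UMIs in each genotype, 6.78% were led by these cells in both. Ctsb, a protease that also cuts from the end of its substrates, stood at 2651 CPM (2464 to 2848) in TG against 2908 CPM (2805 to 3013) in WT. The cells named Macro came next at 1009.7 CPM in TG against 872 CPM in WT, and the intervals did not overlap with those of the plasmacytoid cells. Levels in every other cell type ran from 79.5 to 319.7 CPM in TG and from 109 to 303 CPM in WT. Ctsb was found in 46 of 46 TG and 219 of 219 WT plasmacytoid cells, with a median of 17 UMIs in a TG cell and 13 in a WT cell.

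Ctsl had the widest lead of the 8 genes. It reached 795 CPM (694 to 906) in TG against 776 CPM (724 to 831) in WT plasmacytoid dendritic cells. The next cell types were neutrophils at 35.6 CPM in TG and cluster 5 at 26.8 CPM in WT, so the lead was 22.3-fold in TG and 29.0-fold in WT. Below the plasmacytoid cells each cell type overlapped with its neighbour in the order. A Ctsl UMI was found in 93.5% (82.1 to 98.6) of TG and 94.98% (91.2 to 97.5) of WT plasmacytoid cells, at a median depth of 6011.5 and 4648 UMIs per cell. CD8αα T cells, at a depth of 3168.5 and 2702 UMIs, gave 2.20% and 3.61%. With every cell thinned to 1000 UMIs the shares were 45.7% and 58.0% in plasmacytoid cells and 0.976% and 1.55% in CD8αα T cells. No cell had fewer than 1000 UMIs.

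Ctsh, an aminopeptidase, was also highest in plasmacytoid dendritic cells, at 638 CPM (548 to 738) in TG against 731 CPM (681 to 785) in WT. A second tier was formed by the cells named Macro (216 and 307 CPM), immature B cells (212 and 230.1 CPM) and mature B cells (195 and 177 CPM). In T, NK and NKT cells Ctsh was at 8.86 CPM or less in both genotypes. Ctsz, a carboxypeptidase, followed the same order at the top, with 424 CPM (351 to 507) in TG against 415 CPM (377 to 456) in WT plasmacytoid cells. It was at 252 and 295 CPM in the cells named Macro, 232 and 166 CPM in immature B cells, and between 12.7 and 32.0 CPM in T, NK and NKT cells. Cells that held at least 1 UMI each of Ctsb, Ctsh, Ctsl and Ctss were 41 of 46 TG plasmacytoid cells (89.1%) and 199 of 219 WT cells (90.9%), against 3.67% and 8.05% of the cells named Macro at median depths of 5124 and 5279 UMIs.

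**Figure D1:**
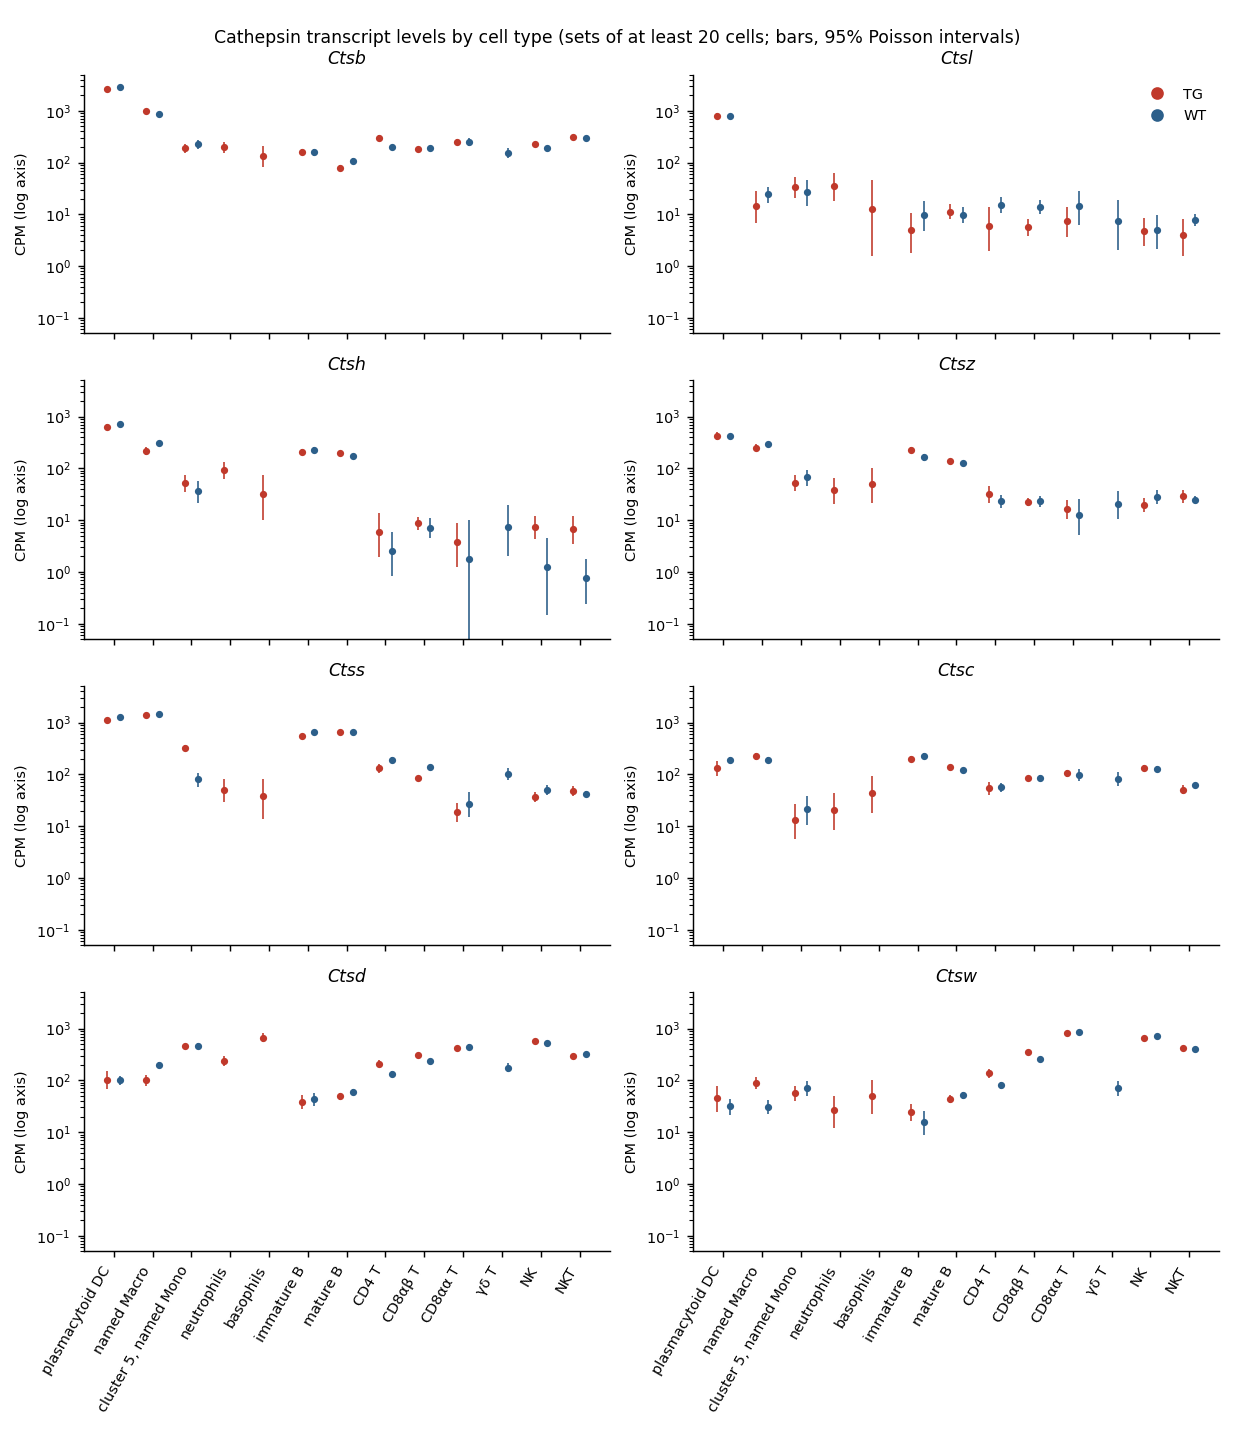
Level of each cathepsin gene (CPM, log axis) in each cell type with at least 20 cells, TG in red and WT in blue, with exact Poisson 95% intervals as bars. Ctsb, Ctsl, Ctsh and Ctsz peak in plasmacytoid dendritic cells, Ctss in the cells named Macro, and Ctsw in CD8αα T cells, in both genotypes.

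Ctss was highest in the cells named Macro, at 1428 CPM (1335 to 1526) in TG against 1436 CPM (1374 to 1500.2) in WT, and 3.20% of all genes were led by these cells in both genotypes. Plasmacytoid dendritic cells followed at 1122 and 1305 CPM, with intervals that overlapped those of the leading cells in WT and not in TG. Mature B cells stood at 659 and 646 CPM and immature B cells at 546 and 649.9 CPM. The lowest Ctss was that of CD8αα T cells, at 18.9 CPM in TG against 27.3 CPM in WT. Within the cells named Macro, Ctss was 1689 and 1888 CPM in cluster 15 and 748 and 717 CPM in cluster 22, and it was 2072 CPM (1852 to 2311) in the WT cells of cluster 27. Ctsc led in the cells named Macro in TG, at 224 CPM (188 to 265), and in immature B cells in WT, at 223 CPM (195 to 254), and in both genotypes these cell types overlapped. NK cells, at 134 and 129 CPM, overlapped with mature B cells at 139 and 121 CPM. The lowest Ctsc level was in cluster 5, at 13.4 CPM in TG against 21.0 CPM in WT, and by cluster it was highest in cluster 15 in both genotypes, at 274 and 260.4 CPM.

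The stretches before the start sites of Ctss and Ctsz are shown because these genes ran together from one cell type to the next. They are the 250 bases upstream of the RefSeq start in GRCm38.p6, at chr3:95526536-95526785 on the plus strand for Ctss and chr2:174439040-174439289 on the minus strand for Ctsz, written 5′ to 3′. Capitals mark GGGCGG, the letters of a GC box, searched on both strands together with CACGTG.
Ctss: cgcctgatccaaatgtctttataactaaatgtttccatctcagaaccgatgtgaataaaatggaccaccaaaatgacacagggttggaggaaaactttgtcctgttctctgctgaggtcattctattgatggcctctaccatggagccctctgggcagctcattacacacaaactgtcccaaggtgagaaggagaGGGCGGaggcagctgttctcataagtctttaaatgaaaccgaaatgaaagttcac
Ctsz: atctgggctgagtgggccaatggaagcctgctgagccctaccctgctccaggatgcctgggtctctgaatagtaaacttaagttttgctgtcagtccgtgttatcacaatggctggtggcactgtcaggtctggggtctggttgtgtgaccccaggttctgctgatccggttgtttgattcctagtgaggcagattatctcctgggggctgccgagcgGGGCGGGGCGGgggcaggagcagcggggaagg
Ctss had 1 copy of GGGCGG, starting 55 bases before the start site. Ctsz had 2 copies that overlap by a base, starting 32 and 27 bases before it. Promoter windows were found for 5 of the 8 genes (Ctsc, Ctsd, Ctsl, Ctss and Ctsz). GGGCGG was in the windows of Ctsc, Ctsd, Ctss and Ctsz and in 32.7% of all 32851 windows of this length, and CACGTG was in those of Ctsd and Ctsl and in 6.02% of all windows. A match is a description of the letters.

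Ctsw was a gene of killer cells. It was highest in CD8αα T cells, at 805 CPM (757 to 855) in TG against 853 CPM (777 to 934) in WT, and 4.72% of all genes were led by these cells in both genotypes. NK cells followed at 665 and 718 CPM, NKT cells at 414 and 404 CPM, and CD8αβ T cells at 349 and 253 CPM, and none of these neighbours overlapped in either genotype. CD4 T cells stood at 137 and 80.6 CPM, and immature B cells were lowest at 24.6 and 15.7 CPM. A Ctsw UMI was found in 89.8% (86.4 to 92.5) of TG and 88.1% (82.7 to 92.3) of WT CD8αα T cells. Immature B cells, which were deeper at a median of 5965 and 4426 UMIs, gave 12.4% and 5.94%. By cluster, NK cells were not alike. Cluster 3 held 739 CPM of Ctsw in TG and 843 CPM in WT, cluster 8 held 621 and 589.8 CPM, and cluster 11 held 628 CPM in 343 TG cells and 475 CPM in 22 WT cells. All 3 were named NK. The summed level of the T cell genes Cd3e, Trac, Cd4 and Cd5, all with UMIs, was 3337 CPM in TG against 401 CPM in WT in cluster 3 and 2629.8 and 497 CPM in cluster 11. In CD8αα T cells this sum was 3388 and 2625 CPM, and in CD4 cluster 6 it was 2701 and 2887 CPM. TG cells of clusters 3 and 11 thus held these genes near the level of T cells. The part of these genes in the Ctsw values was not tested. The 4 gamma delta T cell markers, Cd3e among them, summed to 2819 and 3522 CPM in CD8αα T cells, against 975 and 741 CPM in CD4 cluster 6. The 6 NK cell markers summed to 10527 and 5893 CPM in CD8αα T cells, of which Gzma gave 8064 and 3316 CPM. In NK cluster 3 that sum was 9109 and 10391 CPM. How far gamma delta T or NK cells under the CD8αα name take part in its Ctsw lead was not tested.

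Ctsd, the aspartic protease, was led by basophils in TG, at 668 CPM (546 to 808), and by NK cells in WT, at 532 CPM (497 to 569). Basophils numbered only 16 in WT and were left out of the order there, at 578 CPM (374 to 853). NK cells in TG held 571 CPM (540 to 603), which overlapped with the basophils. Cluster 5 held 456 and 469 CPM and CD8αα T cells 417 and 447 CPM. The highest value of all was 1268 CPM (1097 to 1458) in the 23 WT cells of cluster 27, where 3 cells had no Ctsd UMI and the highest had 28. Ctsd was low in B cells, at 49.4 and 59.3 CPM in mature and 38.5 and 43.3 CPM in immature cells. The same cell type led in TG and WT for 6 of the 8 genes, all but Ctsc and Ctsd, against 38.0% of the 9425 genes with at least 100 UMIs in each genotype. Basophils and neutrophils were ranked in TG only and gamma delta T cells in WT only. A gene led by one of these, such as Ctsd in TG, could not count as the same, and this holds for the 38.0% too. The lowest count among the 8 genes was 378 UMIs, for Ctsl in TG. The part of these limits in the 38.0% was not tested.

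**Figure D2:**
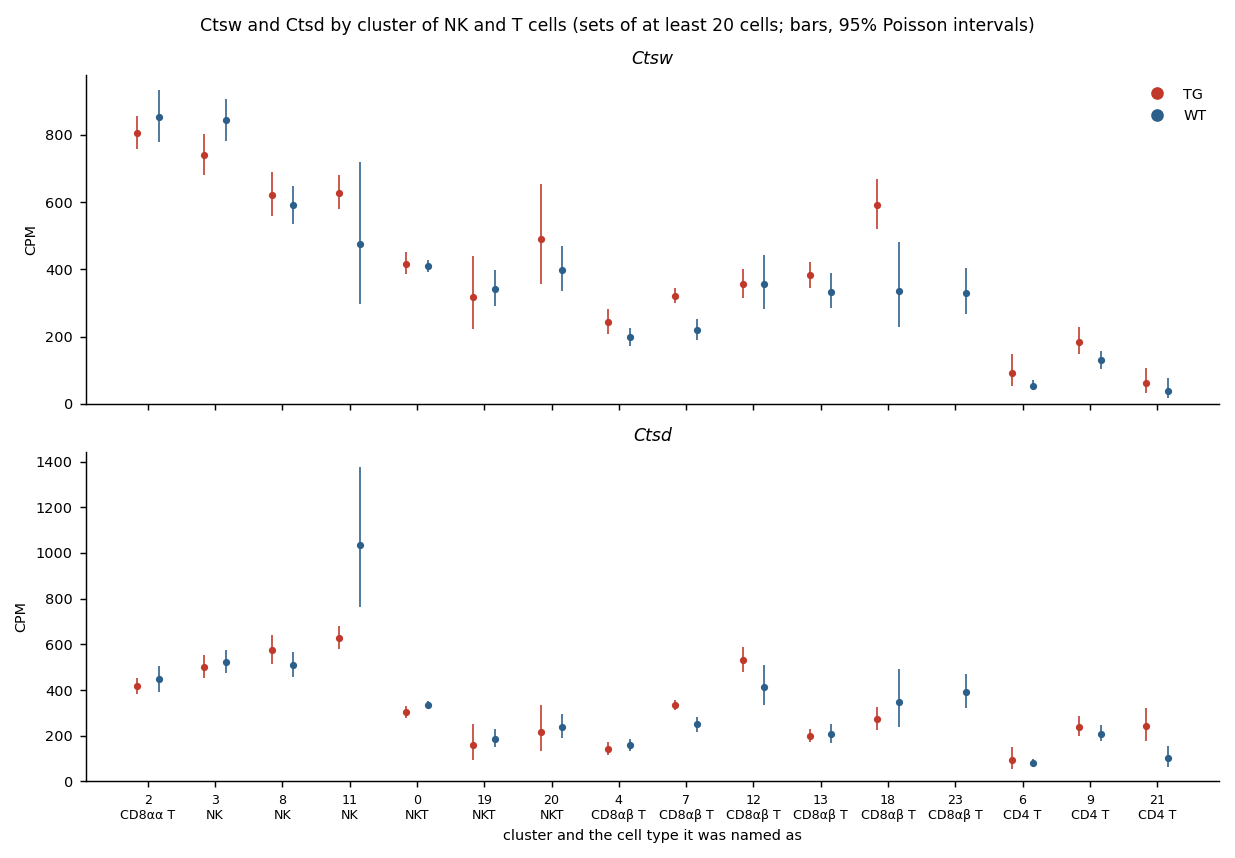
Level of Ctsw and Ctsd (CPM) in each cluster of NK, NKT, CD8 and CD4 T cells with at least 20 cells, TG in red and WT in blue, with exact Poisson 95% intervals as bars. Ctsw is highest in cluster 2, the CD8αα T cells (805 CPM in TG, 853 in WT), and of the clusters drawn those of CD4 T cells are lowest. The WT value of Ctsd in cluster 11 rests on 22 cells.

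Across the 11 cell types that had at least 20 cells in both genotypes, the genes fell into patterns that ran against each other. The correlations are Pearson coefficients of log2 (CPM + 10), given as a description over 11 points that share 2 libraries. Ctsh and Ctsz were the closest pair (0.98 in WT, 0.97 in TG), followed by Ctsh and Ctss (0.92 and 0.94) and Ctss and Ctsz (0.91 and 0.93). Ctsd and Ctsw ran together at 0.79 and 0.80. Ctss and Ctsw ran opposite at -0.89 and -0.90. Of 9424 other genes, the most like Ctsw were Fasl (0.97 and 0.97), the ligand that triggers death through Fas, and then Txk and F2r. The most like Ctsl were Smim5 (0.98 and 0.97), Siglech and Klk1, those of Ctsb were Ddr1 (0.93 and 0.94), Ppfia4 and P2ry14, and those of Ctsd were Armc7 (0.96 and 0.93), Itgb2 and Hrh2. Beside other cathepsins, Ctsh was most like Rnase6 (0.97 and 0.99) and Cybb, Ctsz was most like Rnase6 and Scpep1, and Ctss was most like Erp29 (0.93 and 0.93) and H2-Ab1, a chain of MHC class II. Ctsc was most like Limd1 (0.92 and 0.92), Ccdc50 and Sumo3.

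TG and WT cells were then compared within 8 cell types with at least 50 cells of both. Immature B cells (cluster 10, with 193 TG and 202 WT cells) also had as many but were not among the comparisons chosen, and only their ratios are given. A gene counted as past 1.5-fold when its ratio of CPM lay beyond 1.5 either way with at least 50 UMIs over both genotypes. In the cells named Macro, 7 of the 8 genes had 50 UMIs and 2 were past 1.5-fold, against 20% of all genes tested there. Ctsw stood at 89.9 CPM in TG against 30.7 CPM in WT (log2 ratio 1.55, 0.95 to 2.16). NK cell markers moved with it. In cluster 15, which held most of these cells, all 6 markers had UMIs and their summed level was 1436 CPM in TG against 104 CPM in WT, against 9109 and 10391 CPM in NK cluster 3. Among cluster 15 cells with no UMI of these markers Ctsw was 44.1 CPM in 35 TG cells and 15.3 CPM in 124 WT cells, from 6 and 8 UMIs, and the interval of the log2 ratio (1.53, -0.28 to 3.24) included 0.

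Ctsd was the other, at 99.7 CPM in TG against 197 CPM in WT (log2 ratio -0.98, -1.41 to -0.58). With every cell thinned to 1000 UMIs the log2 ratio was -0.14. It was -0.85 with equal weight per cell, -0.91 without the 3 top cells and -1.07 under TMM scaling, and 0.41 with clusters weighted alike. Cluster 27, which had no TG cell, carried 197 of the 276 WT Ctsd UMIs. In cluster 15 Ctsd was 115 CPM in TG against 104 CPM in WT (log2 ratio 0.14, -0.41 to 0.68), and in cluster 22 it was 58.9 and 14.2 CPM from 10 and 8 UMIs. Ctss, which was highest in these cells, was at a log2 ratio of -0.01 (-0.12 to 0.11). Ctsh was lower in TG, at 216 against 307 CPM (-0.51, -0.80 to -0.23), short of 1.5-fold. It was past 1.5-fold under TMM scaling (-0.60), with equal weight per cell (-0.70), by thinning (-0.65), without the 3 top cells (-0.59) and with clusters weighted alike (-0.69). Within cluster 15 Ctsh was 235 CPM in TG against 405 CPM in WT (log2 ratio -0.78, -1.12 to -0.45) and Ctsz was 267 and 399 CPM (-0.58, -0.90 to -0.26), while Ctsb was 1289 and 1048 CPM (0.30, 0.14 to 0.46). In cluster 15 the monocyte markers summed to 4838 CPM in TG against 7034.5 CPM in WT. The neutrophil markers summed to 475 and 992 CPM there and the macrophage markers to 1323 and 1223 CPM. The part of such a difference in make in these ratios was not tested.

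**Figure D3:**
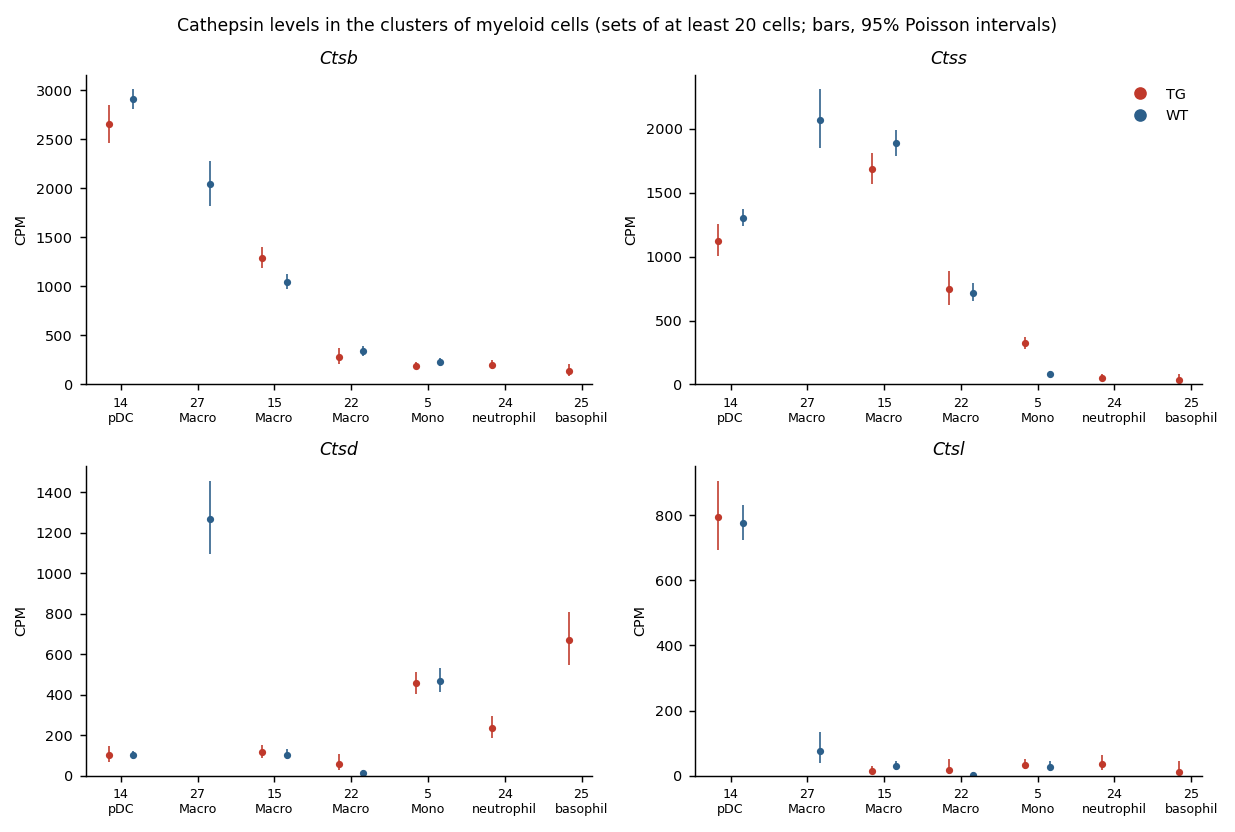
Level of Ctsb, Ctss, Ctsd and Ctsl (CPM) in the myeloid clusters with at least 20 cells of a genotype, under the authors' names, TG in red and WT in blue, with exact Poisson 95% intervals as bars. Cluster 27, with WT cells only, holds the highest Ctsd (1268 CPM), and Ctss in cluster 5 is 321 CPM in TG against 80.4 in WT.

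The largest difference between genotypes among the 8 genes with at least 50 UMIs was that of Ctss in cluster 5. It stood at 321 CPM (277 to 370) in TG against 80.4 CPM (57.9 to 109) in WT, a log2 ratio of 2.00 (1.51 to 2.52). Of the 6 genes with 50 UMIs in cluster 5 it was the only one past 1.5-fold, against 20.3% of all genes tested there. A Ctss UMI was found in 47.1% (40.1 to 54.2) of 204 TG cells and 12.0% (8.31 to 16.6) of 258 WT cells, at median depths of 2614.5 and 1769.5 UMIs. Thinned to 1000 UMIs per cell the shares were 23.0% and 7.75%. CD8αα T cells, which hold the least Ctss, gave 5.85% and 6.70% at depths of 3168.5 and 2702 UMIs. The 3 cells with most Ctss held 8.85% of its TG UMIs and 21.4% of its WT UMIs, and no cell held more than 6. Markers of other cells were also present. The 5 B cell markers, all with UMIs, summed to 334 CPM in TG against 203 CPM in WT. The 6 NK cell markers, all with UMIs, summed to 911 and 497 CPM. Of that sum the granzyme gene Gzma gave 757 and 283 CPM, and without Gzma it was lower in TG. The 7 macrophage markers, of which 3 had UMIs in TG and 4 in WT, summed to 373 and 364 CPM. The 6 neutrophil markers summed to 64247 and 44402 CPM and the 6 monocyte markers to 3171 and 2465 CPM. In cluster 5 cells with no UMI of the B cell markers Ctss was 336 CPM in 135 TG cells and 79.3 CPM in 235 WT cells (log2 ratio 2.08, 1.54 to 2.66). Leaving out also the cells with a UMI of Csf1r, C1qa, C1qb or C1qc gave 296 CPM in 89 TG cells and 73.9 CPM in 162 WT cells (2.00, 1.30 to 2.75). Ctsd in cluster 5 was at 456 and 469 CPM (-0.04, -0.29 to 0.22).

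**Figure D4:**
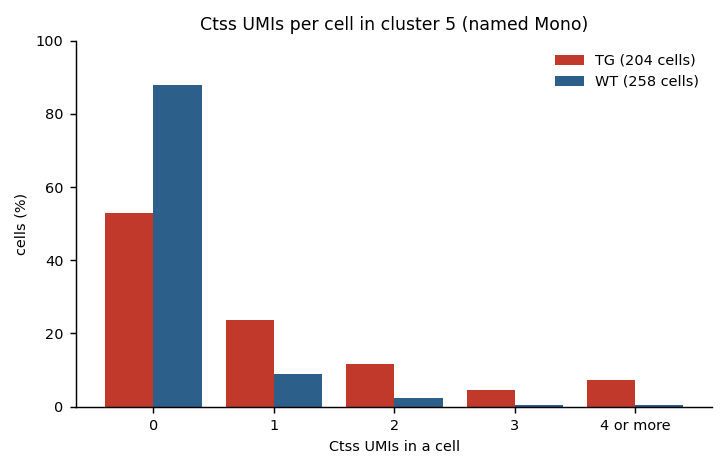
Share of cluster 5 cells (percent) with 0, 1, 2, 3 and 4 or more Ctss UMIs, TG in red (204 cells) and WT in blue (258 cells). Of the WT cells 227 have no Ctss UMI, against 108 of the TG cells, and 15 TG cells against 1 WT cell have 4 or more.

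The counts past 1.5-fold in NK, NKT and CD8αα T cells rest on 4 to 7 genes each and cannot be told apart from the share of all genes. In NK cells 0 of the 6 genes with 50 UMIs were past 1.5-fold, against 15.9% of all genes, and the interval of Ctsb alone left out 0, at 228 CPM in TG against 187 CPM in WT (log2 ratio 0.29, 0.08 to 0.50). Ctsw differed by -0.11 (-0.22 to 0.00) and Ctsd by 0.10 (-0.02 to 0.23) on the log2 scale. The genotypes filled different NK clusters, with 343 of 759 TG cells but 22 of 615 WT cells in cluster 11, where Ctsd was 628 against 1037 CPM (-0.72, -1.15 to -0.27). With clusters weighted alike the log2 ratio of Ctsd in NK cells was -0.19. TG cells named NK were mostly in clusters 3 and 11 (263 and 343 cells), which held T cell genes as given above. In cluster 8, where those genes summed to 417 and 219 CPM, Ctsc was at 0.53 (0.10 to 0.97) and the intervals of the other genes included 0. The part of T cell genes in the NK ratios was not tested. In CD8αα T cells 0 of 4 were past 1.5-fold, against 15.9% of all genes, with Ctsw at -0.08 (-0.24 to 0.08), Ctsd at -0.10 (-0.32 to 0.12) and Ctsb at 0.00 (-0.29 to 0.30). In NKT cells 1 of 7 was, against 12.8% of all genes. It was Ctsl, with 7 UMIs in 446 TG cells and 52 in 2232 WT cells, and its interval included 0 (-0.99, -2.37 to 0.15). Ctsh had under 50 UMIs in these cells, with 12 in TG and 5 in WT NKT cells (3.17, 1.56 to 5.02) and 17 in TG and 2 in WT NK cells (2.58, 0.51 to 5.74). The B cell markers were also higher in TG, at 117 and 40.8 CPM in NK cluster 3, 139.8 and 106 CPM in cluster 8 and 149.8 and 21.6 CPM in cluster 11, and their part in the Ctsh ratios was not tested.

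CD8αβ T cells had 50 UMIs for all 8 genes, and 2 were past 1.5-fold, both lower in TG, against 15.7% of all genes. Ctss was 83.9 CPM (76.3 to 92.1) in TG against 140.3 CPM (127 to 154) in WT (log2 ratio -0.74, -0.94 to -0.55), and Ctsl was 5.66 and 14.03 CPM from 30 and 43 UMIs (-1.31, -2.03 to -0.60). In each of the 5 clusters with at least 20 cells of both genotypes Ctss was lower in TG, with the widest gap in cluster 12 (77.6 against 182 CPM) and the narrowest in cluster 13 (127 against 161 CPM). With all CD8αβ clusters given the same weight in TG and WT the log2 ratio of Ctss was -0.55, short of 1.5-fold. That weighting also took in cluster 23, which had 15 TG and 76 WT cells and is not among the 5. Ctsw and Ctsd were higher in TG without reaching 1.5-fold. Ctsw was 349 CPM (333 to 365) in TG against 253 CPM (236 to 272) in WT (0.46, 0.34 to 0.58), with the widest gap in cluster 18, at 591 and 337 CPM, and no gap in cluster 12, at 355 and 355 CPM. Ctsd was 308 and 239 CPM (0.36, 0.24 to 0.49). By cluster Ctsd was higher in TG in clusters 7 (0.42) and 12 (0.36) and not in clusters 4 (-0.16), 13 (-0.05) and 18 (-0.35).

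In CD4 T cells 3 of the 6 genes with 50 UMIs were past 1.5-fold, all higher in TG, against 20.5% of all genes. Ctsw was 137 CPM in TG against 80.6 CPM in WT (log2 ratio 0.77, 0.41 to 1.12). The summed level of the 6 NK cell markers was also higher in TG. It was 507 and 167 CPM in cluster 9 and 166 and 78.1 CPM in cluster 6. The granzyme gene Gzma, which is on this list, gave 431 and 28.3 CPM in cluster 9 and 120 and 36.0 CPM in cluster 6. Without Gzma the sum was lower in TG in cluster 9 and near level in cluster 6. The 6 monocyte markers were higher in TG in cluster 6, at 344 and 83.1 CPM. Neutrophil markers were 745 and 147 CPM in cluster 6 and 419 and 211 CPM in cluster 9, and B cell markers were 132 and 42.0 CPM and 122 and 61.9 CPM. At least 4 markers of each list had UMIs, and their part in these ratios was not tested. In CD4 T cells Ctsd was 209.5 and 132 CPM (0.67, 0.39 to 0.95), and Ctsb was 296 and 197 CPM (0.59, 0.35 to 0.82). Ctss was lower in TG, at 131 against 194 CPM (-0.56, -0.88 to -0.25). The median log2 ratio was 0.53 over the 6 genes and 0.07 over all genes tested. Ctsb stood at the edge of the limit and was short of it under TMM scaling (0.52), median-of-ratios scaling (0.52), totals without ribosomal and mitochondrial genes (0.49) and without the 3 cells with most UMIs (0.54), and Ctsd did so without ribosomal and mitochondrial genes (0.57). Ctss was past it under TMM scaling (-0.63), median-of-ratios scaling (-0.63), totals without ribosomal and mitochondrial genes (-0.66), without doublets (-0.59), by thinning (-0.72) and without the 3 top cells (-0.61). The mix of clusters differed. Cluster 6, with the lowest Ctsb and Ctsd of the CD4 clusters, gave 58 of 238 TG cells and 397 of 734 WT cells. With the clusters weighted alike Ctsw stayed past 1.5-fold at 0.59, Ctsb came to 0.28 and Ctsd to 0.37, and Ctss to -0.59. In mature B cells 0 of 8 genes were past 1.5-fold, against 9.91% of all genes, and Ctss was at 0.03 (-0.05 to 0.11). Their cluster 17 held 29 TG and 155 WT cells, of which 22 and 110 were called doublets, with Ctsw at 232 and 177 CPM against 32.8 and 19.8 CPM in cluster 1. In plasmacytoid dendritic cells, with 46 TG cells and so too few for a count, Ctsb was at -0.13 (-0.25 to -0.02), Ctsc at -0.54 (-1.09 to -0.03) and Ctss at -0.22 (-0.40 to -0.04), and the intervals of the other 5 genes included 0. In immature B cells Ctsz was higher in TG (0.48, 0.20 to 0.76), Ctss was lower (-0.25, -0.41 to -0.09) and the intervals of the other 6 genes included 0.

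**Figure D5:**
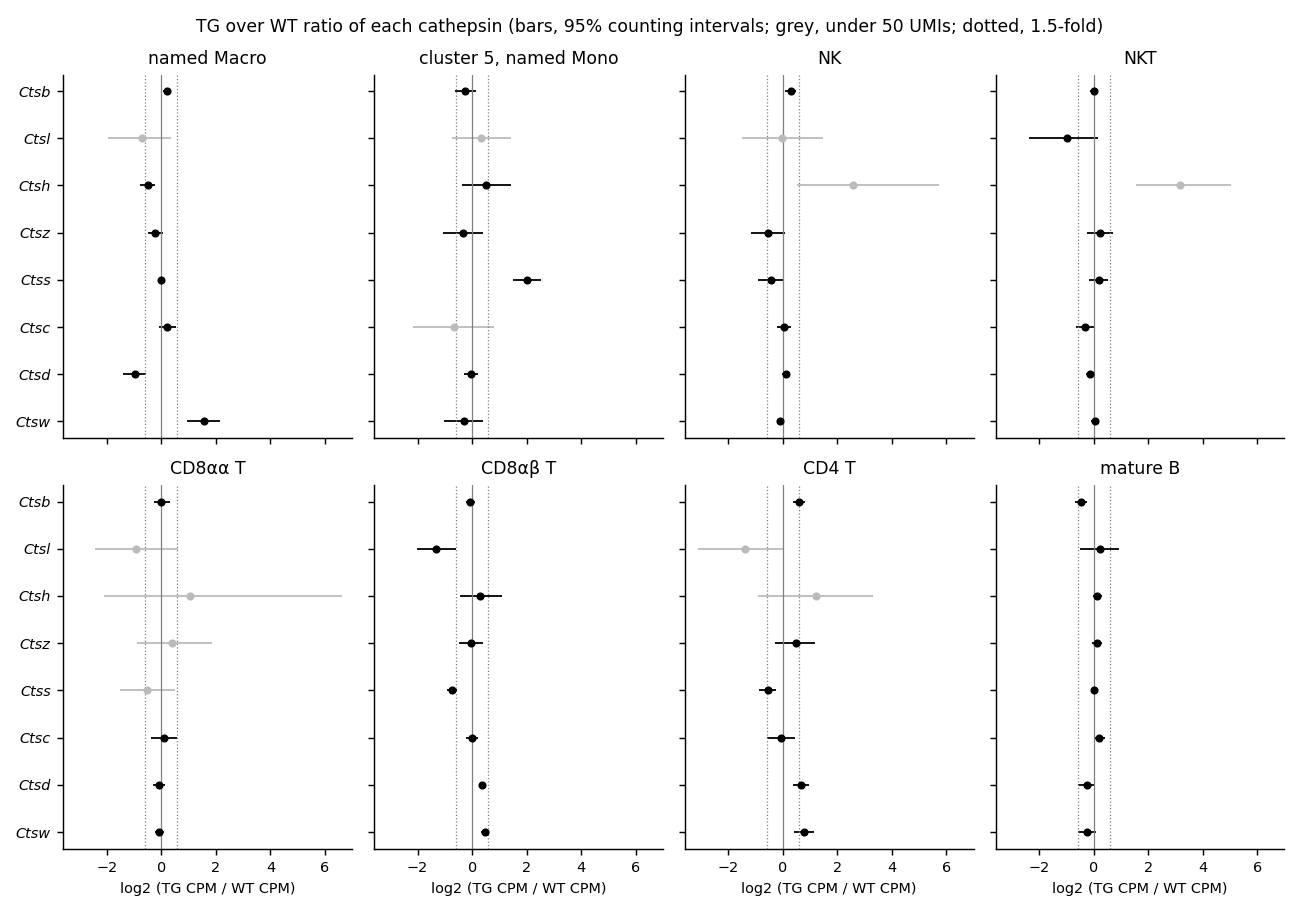
TG over WT ratio of each gene (log2 of CPM over CPM) in the 8 cell types compared, each with at least 50 cells of both genotypes, with exact binomial 95% intervals as bars. Grey points rest on fewer than 50 UMIs and dotted lines mark 1.5-fold. Ctss in cluster 5 (2.00) lies farthest from 0 among the black points.

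Surface proteins of the same cells gave a second readout. Cells of a type were divided into tertiles by the antibody count of a protein, within each genotype. In CD8αβ T cells Ctsw was higher in the tertile with most CD44, a protein of antigen-experienced T cells, than in the tertile with least, at 422 against 279.6 CPM in TG (log2 ratio 0.59, 0.43 to 0.76) and 292 against 198 CPM in WT (0.56, 0.28 to 0.85). Ctsb followed CD44 too, at 0.51 (0.28 to 0.74) in TG and 1.54 (1.16 to 1.93) in WT. Ctsd followed it in WT at 0.97 (0.66 to 1.29), and in TG the value was -0.05 (-0.22 to 0.13). Along CD62L, a homing receptor of naive and central memory T cells, Ctsd was lower in the top tertile by -0.98 (-1.17 to -0.80) in TG and -0.65 (-0.92 to -0.39) in WT, and Ctsb by -0.62 (-0.86 to -0.38) and -1.30 (-1.65 to -0.96). In the cells named NK, Ctsw was higher with CD49a, an integrin of liver-resident cells (0.19, 0.01 to 0.37 in TG and 0.60, 0.39 to 0.81 in WT). It was lower with CD49b, an integrin of circulating NK cells (-0.34, -0.52 to -0.16 and -0.55, -0.76 to -0.33). TG cells of NK clusters 3 and 11 held T cell genes, as given above, and their part in these ratios was not tested. Along CD122, a chain of the IL-2 and IL-15 receptors, Ctsd in CD8αβ T cells went opposite ways, at -0.50 (-0.67 to -0.32) in TG and 0.36 (0.09 to 0.62) in WT, while Ctsb was at -0.59 (-0.83 to -0.36) and -0.28 (-0.57 to 0.02). Ctsw along CD122 was at 0.14 (-0.03 to 0.30) in TG and 0.43 (0.18 to 0.68) in WT. Median CD122 antibody counts per cell were 2 and 3 in CD8αα T cells and 3 and 3 in NK cluster 8, no higher than the 3 and 4 in cluster 5. How far the CD122 tertiles part cells by the protein was not tested. In NKT cells Ctsw differed little along CD122 (-0.09 in TG and -0.09 in WT) and NK1.1 (0.17 and 0.08), and the intervals included 0. Ctsd followed NK1.1 in TG NKT cells at 0.51 (0.18 to 0.84) and was at 0.01 (-0.14 to 0.16) in WT. Ctsb was lower with both proteins in TG NKT cells, at -0.37 (-0.68 to -0.07) for CD122 and -0.40 (-0.70 to -0.09) for NK1.1, and was at -0.07 and -0.01 in WT. By median, a cell of NK cluster 8 held 12 NK1.1 counts in TG and 8 in WT. A cell of cluster 15, named Macro, held 15 and 4, and one of mature B cluster 1 held 5 and 3. Whether the NK1.1 tertiles part cells by that protein was not tested either. Median UMIs per cell differed between tertiles. In CD8αβ T cells they were 4706 in the lowest and 4215 in the highest CD44 tertile in TG and 2735 and 3363 in WT. For CD62L they were 3815.5 and 5453.5 in TG and 3869 and 3094 in WT. For CD122 they were 3948 and 5315 in TG and 2784 and 3315 in WT. The part of depth in these ratios was not tested.

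The partners of the cathepsins were followed in lists. Of 6 other cathepsins 5 were in the table, all but Ctsg. In the library files Ctsg, a neutrophil granule protease, had 36 UMIs in the named TG cells and 8 in the named WT cells. Ctsa, a carboxypeptidase, was led by plasmacytoid dendritic cells in both genotypes at 328 CPM in TG against 252 CPM in WT. Past 1.5-fold it was higher in TG in NKT cells (log2 ratio 0.62, 0.42 to 0.81) and CD4 T cells (0.65, 0.30 to 0.99), where it was 0.48 with clusters weighted alike. Of the 16 listed inhibitors 12 were in the table. Cst3, the secreted inhibitor cystatin C, was led by the cells named Macro, at 7953 CPM in TG against 9142 CPM in WT. In CD4 T cells 7 of the 8 tested inhibitors were higher in TG past 1.5-fold, against 12.9% of all genes, with a list median of 0.82 against 0.07 for all genes. Among them Serpina3g, an inhibitor of cysteine cathepsins, was at 1.51 (1.16 to 1.86). With clusters weighted alike 3 of the 8 were past 1.5-fold in CD4 T cells, against 8.57% of all genes, with Serpina3g at 0.90 and Serpinb9, an inhibitor of granzyme B, at 0.13. By thinning 4 were higher and 1 lower, against 17.5% and 14.1% of all genes. The summed NK cell markers were also higher in TG CD4 T cells, as given above, but without Gzma that sum was lower in cluster 9 and near level in cluster 6. Serpinb9 stood at 255 CPM in TG NK cells against 36.7 CPM in TG CD4 T cells. The part of NK cell transcripts in these counts was not tested. In NK cells 4 of 8 were lower in TG past 1.5-fold, against 8.76% of all genes, with Serpina3g at -0.84 (-0.98 to -0.69) and Serpinb9 at -0.70 (-0.86 to -0.54). NK cells of the genotypes sat in different clusters, and T cell genes were higher in TG in clusters 3 and 11, as given above. With clusters weighted alike only Serpinb9 was past 1.5-fold, at -0.88, against 9.30% of all genes, with Serpina3g at -0.34. By thinning 2 of 8 were, where 11.1% of all genes were higher and 13.8% lower in TG past 1.5-fold. By cluster, Serpina3g was at -0.04 (-0.23 to 0.14) in cluster 3 and -1.29 (-1.62 to -0.96) in cluster 8, and Serpinb9 was lower in TG in clusters 3 (-0.53), 8 (-0.72) and 11 (-1.45). In other cells Serpina3g was higher in TG past 1.5-fold, at 1.85 (1.69 to 2.02) in mature B cells, 1.34 (1.22 to 1.45) in NKT cells, 1.03 (0.75 to 1.31) in CD8αα T cells and 0.85 (0.44 to 1.25) in the cells named Macro, where it was 0.58 and short of 1.5-fold with clusters weighted alike. In CD8αβ T cells Serpina3g was at 0.41, short of 1.5-fold. It was lower in TG in CD8αβ cluster 12 (-1.11, -1.72 to -0.48) and higher in the other clusters with at least 20 cells of both genotypes. Serpina3f, named after its values were seen, was at 2.32 (1.94 to 2.72) in mature B cells.

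Of the 10 granule proteases that cathepsin C activates, 8 were in the table. In CD8αβ T cells 3 of 4 were higher in TG past 1.5-fold, against 9.43% of all genes, with Gzma at 2.37 (2.32 to 2.43), Gzmb at 1.35 (1.25 to 1.45) and Gzmm at 2.83 (2.48 to 3.21), and Ctsc there was at 0.00 (-0.22 to 0.22). The mix of CD8αβ clusters differed, with cluster 4 giving 145 of 1020 TG and 363 of 819 WT cells and cluster 7 giving 319 and 132. With clusters weighted alike the values were 2.28 for Gzma, 1.33 for Gzmb and 2.62 for Gzmm. By cluster Gzmm was at 6.32 in cluster 4, 1.58 in cluster 7 and 2.82 in cluster 13. Its interval included 0 in clusters 12 (0.75, -0.35 to 2.05) and 18 (-1.21, -4.01 to 2.26). Gzma was 8303 CPM in TG against 1376 CPM in WT in cluster 7 and 9724 and 1188 CPM in cluster 12. In cluster 4 it was 105 and 27.7 CPM. Mature B cells of cluster 1, which should lack Gzma, held 157 and 25.8 CPM. How far the cluster 4 values are background was not tested. In CD8αα T cells 2 of 3 were higher in TG past 1.5-fold, against 9.57% of all genes. Gzma was at 1.28 (1.21 to 1.35), Gzmb at 0.03 (-0.03 to 0.10), Gzmk at 1.64 (0.68 to 2.76) and Ctsc at 0.10 (-0.37 to 0.58). In NK cells 1 of 4 was higher and 1 lower past 1.5-fold, against 7.15% and 8.76% of all genes. They were Gzmk at 1.21 (0.55 to 1.91), from 82 and 25 UMIs, and Gzmc at -3.29 (-3.96 to -2.68), from 25 and 172 UMIs, which was named after its values were seen. Gzmk had 38 TG and 14 WT UMIs in cluster 3 and 39 and 0 in cluster 11, where the T cell genes given above were higher in TG, and 5 and 11 UMIs in cluster 8 (-0.78, -2.65 to 0.87), where those genes summed to 417 and 219 CPM. Their part was not tested. Gzma was at 0.49 (0.46 to 0.52) and Gzmb at -0.20 (-0.26 to -0.14) in NK cells, with Ctsc at 0.05 (-0.21 to 0.31). The NK clusters were not alike, with Gzma at -0.05, 0.47 and 0.00 in clusters 3, 8 and 11 and at 0.18 with clusters weighted alike. Gzmb was lower in TG in clusters 3 (-0.41) and 11 (-0.50) and higher past 1.5-fold in cluster 8 (0.62), where Ctsc was at 0.53 (0.10 to 0.97). In the cells named Macro Gzma was also higher in TG, at 5.17 (4.67 to 5.70) from 550 and 35 UMIs, beside the NK cell markers given above, of which it is one.

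The 7 genes of the invariant chain pathway served by cathepsins S and L were all in the table, and 3 were led by the cells named Macro and 2 by mature B cells in both genotypes. In the cells named Macro 0 of 7 were higher and 1 lower in TG past 1.5-fold, against 11.8% and 8.16% of all genes, with a list median of -0.18 against 0.07 for all genes. In cluster 5 all 4 tested were higher in TG past 1.5-fold, against 278 of the 2927 genes tested there, with a median of 1.07 against -0.06 for all genes. Cd74, the invariant chain, was at 0.81 (0.60 to 1.01) and H2-Ab1 at 1.73 (1.32 to 2.16) beside Ctss at 2.00. The B cell markers were higher in TG there too, as given above. In the cluster 5 cells with no UMI of the B cell markers Cd74 was at 1.73 (1.34 to 2.14), H2-Aa at 3.15 (2.00 to 4.54), H2-Ab1 at 2.73 (1.99 to 3.54) and H2-Eb1 at 0.52 (-0.45 to 1.49). Past 1.5-fold in the same direction were 5 of 5 in NK cells (7.15% of all genes), NKT cells (7.24%), CD8αα T cells (9.57%) and CD4 T cells (12.9%) and 4 of 7 in CD8αβ T cells (9.43%), cell types in which Ctss was not higher in TG past 1.5-fold. The 5 B cell markers were also higher in TG in such cells, at 117 CPM in TG against 40.8 CPM in WT in NK cluster 3 and 129 and 30.9 CPM in CD8αα T cells. Their part in these ratios was not tested. Of the 30 lysosomal genes measured, 11 were led by plasmacytoid dendritic cells in both genotypes, against 6.78% of all genes, among them Psap, which encodes the saposins, at 6581 CPM in TG against 7873 CPM in WT. Between genotypes the medians of the list ran from -0.26 in cluster 5 to 0.07 in CD8αβ T cells. In cluster 5, 2 of 18 were higher and 4 lower in TG past 1.5-fold, against 278 and 315 of the 2927 genes. Under TMM scaling 2 were lower, against 8.92% of all genes. In the cells named Macro 1 of 24 was higher and 4 lower, among them Hexa, a subunit of hexosaminidase (-0.98, -1.32 to -0.65), and Lipa, the lysosomal acid lipase (-0.70, -1.10 to -0.32), which were chosen after their values were seen. These cells hold the WT cells of cluster 27. In cluster 15 alone 0 of 24 were higher and 2 lower, against 13.2% and 10.7% of all genes, with Hexa at -0.74 and Lipa at -0.49.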

How the data were processed

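The authors aligned reads with STAR in the BD Rhapsody pipeline, to mm10 per the submitters' processing notes, and the deposited values are UMI counts per gene, and per antibody, of every cell. The authors filtered cells and genes by a rule that is not stated, gave clusters and cell type names, and deposited the mitochondrial percent of each cell. Member UMIs in the filtered table equalled those of the library files in every named cell. Counts were summed per cell type and genotype and scaled to CPM, with exact Poisson, conditional binomial and Clopper-Pearson intervals at 95% for levels, ratios and shares. Types with at least 20 cells were ordered and 8 types with at least 50 cells in both genotypes compared. Immature B cells had as many, but no comparison of them had been chosen. WT neutrophils (17 cells) and TG plasmacytoid dendritic cells (46 cells) were too few. The rules were tested on simulated data. The genes named are the 8 members, the 3 genes most like each, and the 4 genes with most UMIs of each of 5 lists, beside Gzmc, Hexa, Lipa and Serpina3f, which were named after their values were seen. Members and lists were chosen with earlier results of these data known. Genes named in label checks come from marker lists or lead a cluster. Alternatives were TMM scaling (edgeR 4.0.16) and median-of-ratios scaling (DESeq2 1.42.0) in R 4.3.3, totals that leave out ribosomal and mitochondrial genes, each cell weighted equally, no doublets, no top 3 cells, thinning to 1000 UMIs, and, chosen after seeing the data, cluster weights, cluster 15 alone, cells free of markers and the alternatives for the lists. Scrublet (scanpy 1.11.5) called 0.839% of TG and 3.31% of WT cells doublets, which were kept. Python 3.11.15, numpy 2.4.6, scipy 1.17.1 and pandas 2.3.3 were used. Gene positions come from GENCODE, and promoter windows from RefSeq.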

Additional observations from a re-analysis of the deposited data

Results flagged for a closer look

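The TG over WT log2 ratios of 2 genes past 1.5-fold lay on opposite sides of 0 in different cell types, with 1 library per genotype on each side. Ctsd was lower in TG in the cells named Macro (-0.98) and higher in TG in CD4 T cells (0.67). With clusters weighted alike these were 0.41 and 0.37, neither past 1.5-fold, and in cluster 15 alone the first was 0.14. Cluster 27 of the cells named Macro had no TG cell. Ctss was higher in TG in cluster 5 (2.00) and lower in TG in CD8αβ T cells (-0.74), where it was -0.55 with clusters weighted alike, short of 1.5-fold. Cluster 23, with 15 TG cells, is part of that weighting. The difference between the cell types was not tested, since no genotype had a second library.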

How the results depend on the processing

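Of 79 counts recomputed under the alternatives 65 stayed within 1.5 times their value. The number of genes past 1.5-fold in cluster 5 went from 1 to 2 with equal weight per cell, without doublets, without the 3 top cells, by thinning and at a minimum of 10 UMIs, each with Ctss kept. In NK cells it went from 0 to 1 without doublets and at a minimum of 10 UMIs and to 2 by thinning. In NKT cells it went from 1 to 2, and in CD8αα T cells from 0 to 1, at a minimum of 10 UMIs. In CD8αβ T cells it went from 2 to 1 with clusters weighted alike, the small cluster 23 included. In CD4 T cells it went from 3 to 5 by thinning and at a minimum of 10 UMIs, and in mature B cells from 0 to 2 by thinning. Thinning leaves few UMIs, and the cause of these shifts was not tested. Of 499 ratios of single genes 470 stayed within their interval. Ctsd in the cells named Macro was reversed, to a log2 ratio of 0.41 with clusters weighted alike and 0.14 in cluster 15 alone, both of which leave out cluster 27. TMM and median-of-ratios scaling kept all 64 ratios within their intervals. Genes led by the same cell type numbered 6 or 7 under every alternative. No paired analysis was possible because each genotype was 1 library. The counts planned for neutrophils and plasmacytoid dendritic cells, and their alternatives, were not run, since a genotype had too few cells. With 1 library per genotype, the spread between mice is unknown.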
